A study of Homo sapiens with 6 samples.

Results

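Glycolysis, glucose uptake and the enzymes around pyruvate were followed through 40 genes, chosen by name along the pathway. No measured value enters that choice as a rule, but it was made with earlier results of these data known, so the shares set beside those of all genes below are descriptions. They cover 5 transporters, the steps that turn glucose into lactate, the PFKFB regulators, the entry of pyruvate into mitochondria, the pentose phosphate branch and glycogen metabolism. All 40 had a single row among the 13021 usable gene identifiers of the deposited matrix, and 39 had values in every cell line. SLC2A3 had none in HT29. The series compared colorectal cancer cells carrying a stable lentiviral short hairpin RNA (shRNA) against BZW2, titled SH2, with the same lines carrying a non-targeting shRNA, titled SCR, to find genes and pathways that BZW2 knockdown alters. HCT116 (titled HCT116WT), HT29 and SW480 are established human colorectal cancer lines, and puromycin at 1 µg/ml had selected the transduced cells of both groups. RNA was sequenced from 1 library per line and treatment, so the 3 lines were the replicates, within a line no test was possible, and 1 hairpin stood for the knockdown.

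Glycolysis splits glucose into pyruvate in the cytosol, and each step is run by an enzyme that is often encoded by several genes (isoenzymes). Pyruvate is then either reduced to lactate by lactate dehydrogenase or carried into mitochondria, where the pyruvate dehydrogenase complex turns it into acetyl-CoA. Pyruvate dehydrogenase kinases switch that complex off and its phosphatases switch it on. Tumour cells often run glycolysis even with oxygen present, and many of its genes are known targets of hypoxia-inducible factor and of MYC.

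BZW2, a relative of the translation factor eIF5, was the gene targeted (chr7:16646131-16706523, GRCh38). It had 14.8, 14.8 and 12.4 CPM in the BZW2 shRNA libraries of HCT116, HT29 and SW480, against 84.1, 170.7 and 91.5 CPM in the controls. CPM is the count scaled to a fixed library total, here from whole reads recovered from the deposited values, scaled within each line by the trimmed mean of M values (TMM), so a level is compared most closely within a line. Depth was 2187373 to 8968603 reads in the BZW2 shRNA libraries and 5078001 to 9317444 in the controls, with the lowest depth and 129 listed genes at 0 reads in the HCT116 BZW2 shRNA library. That line stood apart: the standard deviation of the log2 ratio over all its genes was 1.58, against 0.665 in HT29 cells and 0.699 in SW480. Its log2 ratio also followed transcript GC content (Spearman's rho 0.659 across genes, against 0.311 in HT29 cells and −0.06 in SW480; genes share their library and are not independent). The median GC content was 52.8% for the 40 genes and 48.1% for all listed genes. BZW2 itself has a GC content of 36.9%. Its log2 ratio was −2.47 in HCT116, −3.51 in HT29 cells and −2.85 in SW480. With a trend in GC content and transcript length removed it was −1.20, −3.19 and −3.00, so the reduction was then least in HCT116. The part of GC content in the HCT116 values was not tested. Genes whose HCT116 sign or 2-fold standing changes once the GC and length trend is removed are named below, with the changed ratio for some of them only. Of 10 colorectal epithelial markers 6 had values in every line, with a summed level of 6557 to 14587 CPM in the BZW2 shRNA libraries and 3783 to 10414 CPM in the controls, and KRT20, CDX1, VIL1 and CDH17 gave no values. That sum was above control in HCT116 alone and rests on the keratins KRT8, KRT18 and KRT19. CDH1 was below control in every line, against the direction of the sum in HCT116 only. It was at 46.4%, 58.1% and 32.7% of control in HCT116, HT29 and SW480. Its limma p was 0.0120 unadjusted and 0.306 adjusted (adjusted p = 0.0431 without HCT116). EPCAM was also below control in every line, at 69.4%, 85.1% and 81.7%. The part of these markers in the results was not tested. Of 11 blood, endothelial and fibroblast markers 1 had values, COL1A1, with 12 and 10 reads in the BZW2 shRNA libraries of HCT116 and SW480 and 11 and 26 reads in the controls.

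The glycolytic genes did not move as one block. HK2, PFKFB4, ALDOC, ENO2 and PDK1, isoenzyme genes that can be induced, were at least 2-fold lower with BZW2 shRNA in both HT29 and SW480. Not all inducible genes of the set were. In HT29 and SW480, LDHA was at 57.1% and 58.0% of control and SLC16A3 at 80.4% and 139%. GAPDH, ENO1, TPI1, PGAM1 and PKM stood at 99.7% to 121% of control in HT29 and were more than 2-fold higher in HCT116. Other abundant enzymes were lower in HT29 and SW480, PGK1 at 65.3% and 62.0% of control and ALDOA at 62.2% and 40.4%. In SW480 GAPDH was at 65.2% and ENO1 at 71.5% of control, while TPI1, PGAM1 and PKM stood at log2 ratios of 0.16, 0.20 and 0.38. With the GC and length trend removed, the HCT116 log2 ratio was 0.12 for GAPDH, 0.74 for ENO1 and 0.90 for TPI1, each under 2-fold, and 1.64 for PGAM1 and 1.37 for PKM. The genes at least 2-fold lower in HT29 and SW480 were 5 of 39 (12.8%), against 1.19% of all 10875 genes with values in every line, and no gene of the set was at least 2-fold higher in both, against 1.38% of all genes. With the trend removed they were again 5 (1.16% of all genes), with SLC2A1 in place of PDK1. In such bulk RNA, a lower level per cell and fewer cells with the transcript cannot be told apart. In HCT116, by contrast, 31 of 40 genes were above control (77.5%, against 48.2% of all genes), and 18 of 39 in HT29 (46.2%, against 50.4%) and 15 of 40 in SW480 (37.5%, against 49.3%). The same pattern of higher in HCT116 and lower in both other lines held for 10 of 39 genes (25.6%, against 9.61% of all genes).

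Counted within each line, HCT116 had 16 of 40 genes at least 2-fold higher (40%, against 26.8% of all genes with at least 5 CPM in the higher library) and 4 at least 2-fold lower (10%, against 28.8%). HT29 had 6 of 39 at least 2-fold lower (15.4%, against 6.17%) and none at least 2-fold higher, against 3.74% of all genes. SW480 had 11 of 40 at least 2-fold lower (27.5%, against 7.36%) and again none at least 2-fold higher, against 4.98%. The median log2 ratio of the 40 genes was 0.67 in HCT116, −0.02 in HT29 cells and −0.42 in SW480, where all listed genes had medians of −0.08, 0.01 and −0.01. With the GC and length trend removed the members' medians became 0.48, −0.01 and −0.29, and 10 genes in place of 16 were at least 2-fold higher in HCT116. SLC16A3, PFKL, PFKFB3, ALDOA, TPI1, GAPDH, ENO1, PGD and TKT were then under 2-fold, and LDHA, PDHB and MPC2 were over it. The HCT116 sign turned for 10 of 40 genes, to below control for SLC2A1 (−0.49), SLC2A8 (−0.85), SLC16A3 (−0.09), HK1 (−0.40), PFKFB4 (−0.61), PDK2 (−1.08) and TALDO1 (−0.14), and to above it for SLC16A1 (0.52), PFKFB2 (0.51) and PDP1 (0.27). With the trend removed 27 of 40 genes were above control in HCT116 (67.5%, against 48.7% of all genes). In the 17 enzymes from glucose to lactate the summed level was 21236 CPM with BZW2 shRNA against 8414 CPM in the HCT116 control, 11829 against 12546 CPM in HT29 cells and 13039 against 17789 CPM in SW480.

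**Figure D1:**
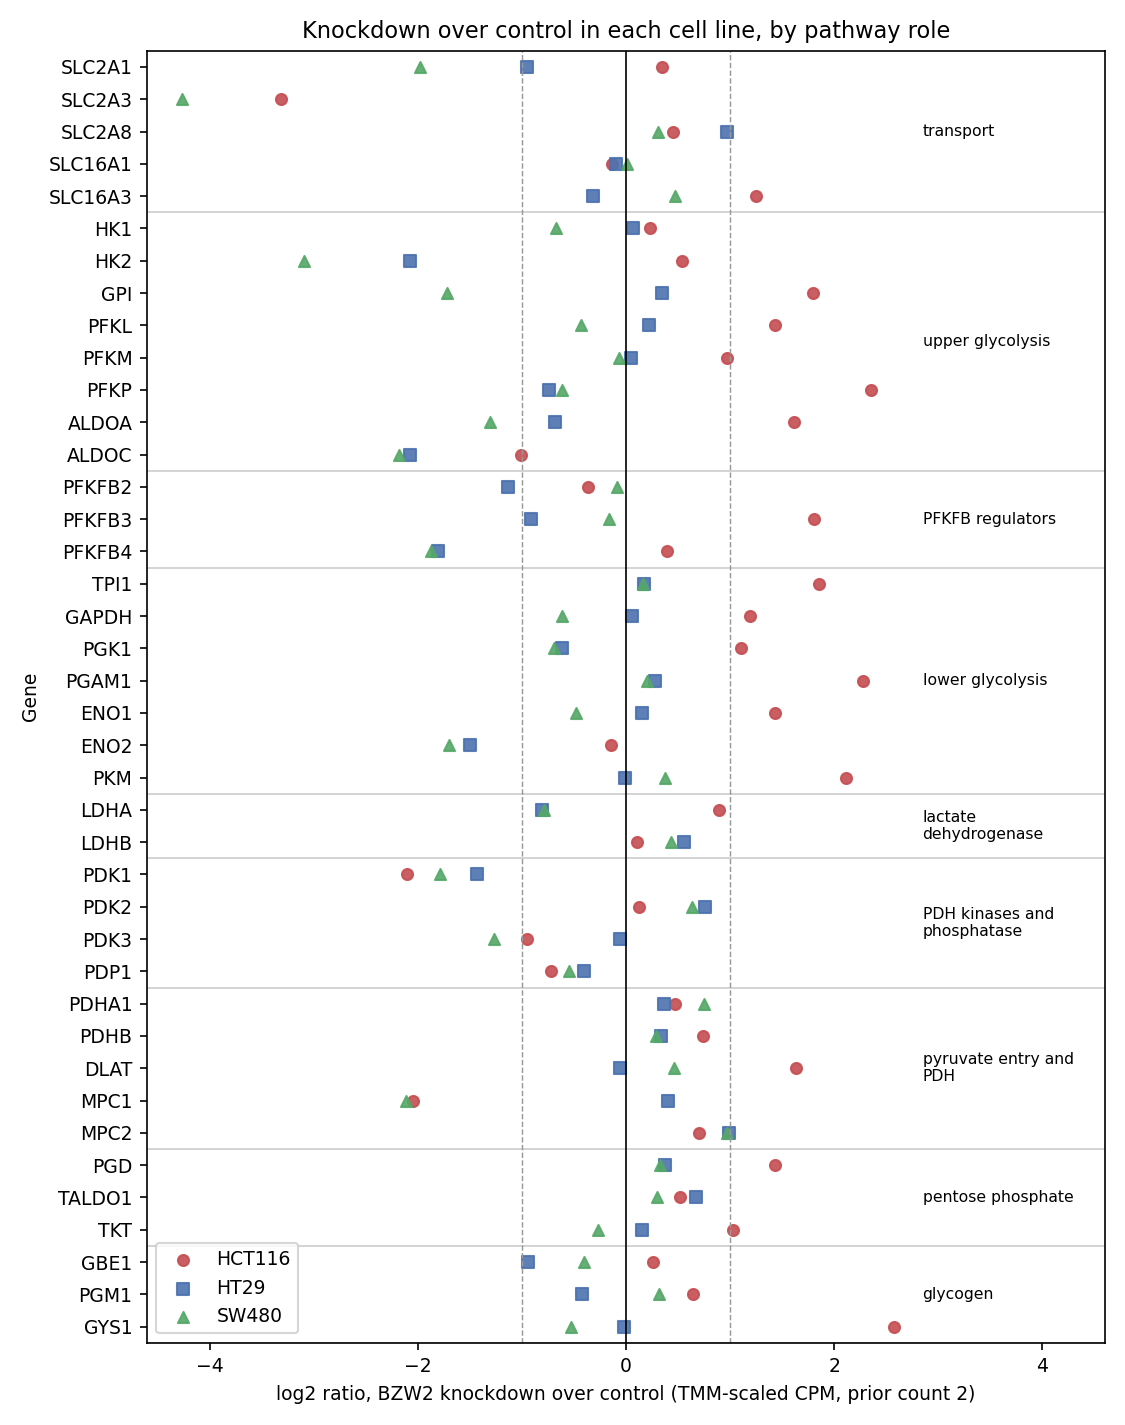
Log2 ratio of BZW2 shRNA over control for each of the 40 genes (one row per gene, grouped by role) in HCT116 (circles), HT29 (squares) and SW480 (triangles); dashed lines mark 2-fold. HCT116 points lie to the right for most enzymes from GPI to PKM, while HT29 and SW480 points lie at or beyond the lower 2-fold line for HK2, PFKFB4, ALDOC, ENO2 and PDK1.

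Across the 3 lines the genes were tested with limma on log2(value + 1), with the line as a block and p-values adjusted over all 10875 genes; fold changes on this scale understate low genes. No gene of the set, and no gene of the series, passed an adjusted p of 0.05. At an unadjusted p under 0.05, limma gave 766 lower genes (7.04% of all) and 717 higher ones (6.59%), while edgeR and limma-voom also gave 0 adjusted calls and DESeq2 gave 134 lower and 110 higher. Among the 39 genes tested here, 4 were lower at an unadjusted p under 0.05 (10.3%, a share near the 7.04% of all genes): PDK1, ALDOC, ENO2 and HK2. MPC2 alone was higher (2.56%). The set had 16 negative and 23 positive fold changes with a median of 0.28 on the log2 scale; all genes had a median of 0.02, with 48.9% negative and 51.1% positive. Direction was shared by all 3 lines in 6 genes that were lower (15.4%, against 21.1% of all genes) and in 10 that were higher (25.6%, against 22.3%), shares near the background. Leaving out HCT116, 6 of 39 passed the adjusted limma threshold, all lower (15.4%, against 1.39% of all genes): ALDOC, ENO2, HK2, PDK1, PFKFB4 and SLC2A1. None passed as higher, against 1.72% of all genes. That fit rests on 2 lines. When HT29 or SW480 was left out instead, 0 genes of the set passed in either direction. The limma adjusted p of HK2 was then 0.666 without HT29 and 0.635 without SW480. The values without HCT116 given below are from the 1 omission of a line in which genes of the set passed.

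**Figure D2:**
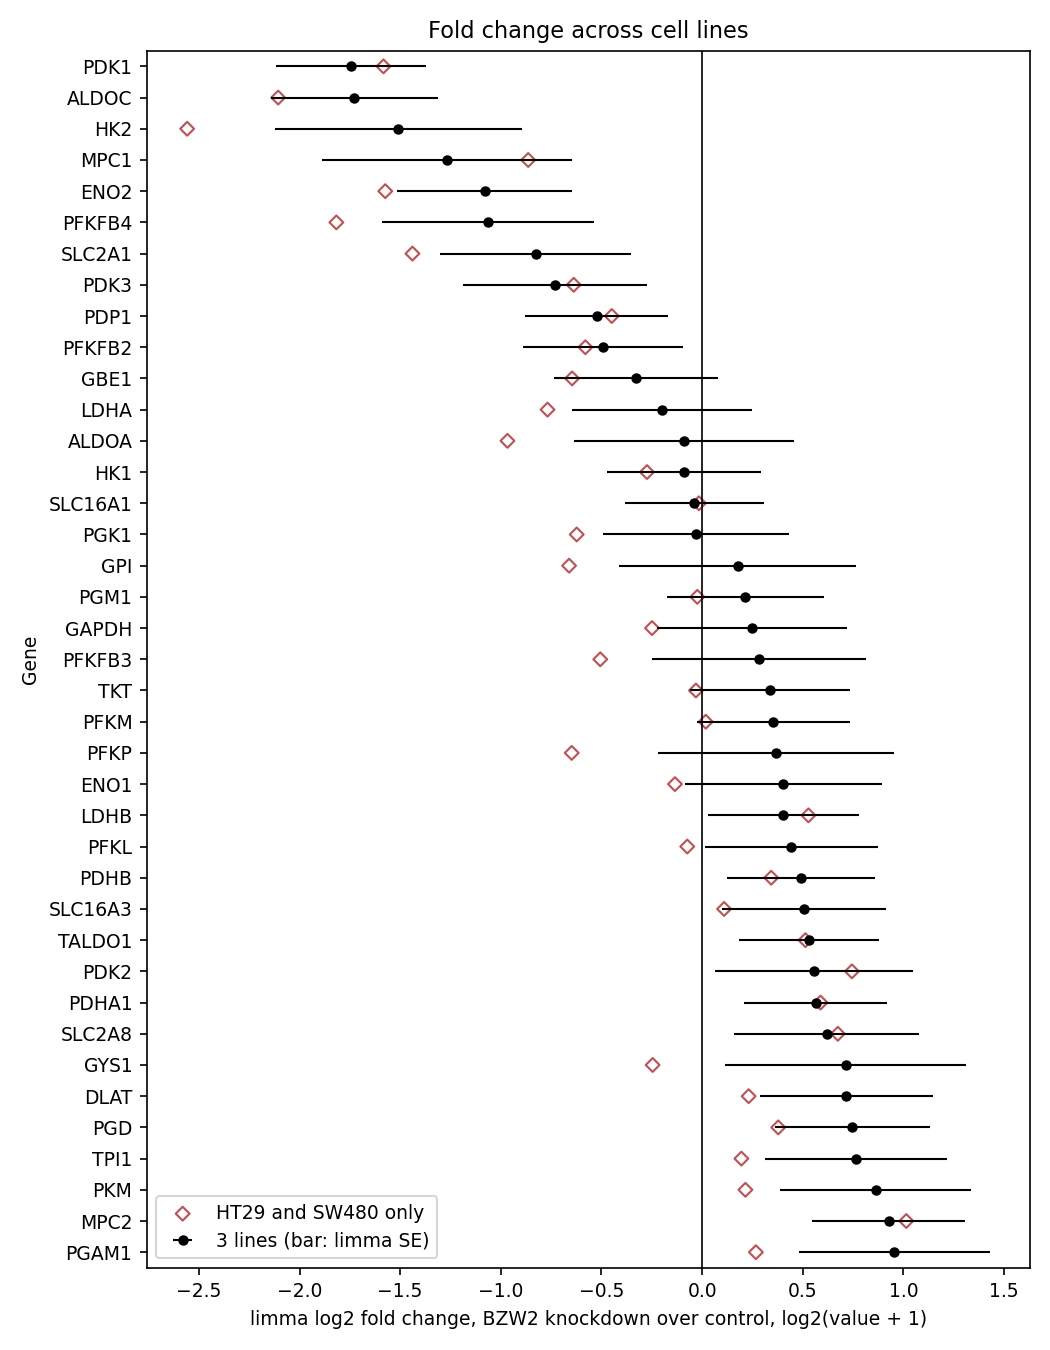
limma log2 fold change of BZW2 shRNA over control for the 39 genes with values in all lines (black points, bars are the SE, n = 3 lines), sorted, with the estimate from HT29 and SW480 alone as open diamonds. PDK1 at −1.74 and ALDOC at −1.73 stand lowest, PGAM1 at 0.95 and MPC2 at 0.93 highest, and the diamonds of HK2, SLC2A1, PFKFB4, ALDOA and PFKP lie well to the left of their black points.

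Promoter sequence is shown for the genes of smallest p with 1 direction in all lines: PDK1, ALDOC and ENO2, lower with BZW2 shRNA, and MPC2, higher. The windows run from 250 bases before to 50 after a RefSeq start (GRCh38.p14), at chr2:172555123-172555422 and chr2:172555840-172556139 (plus strand) for the 2 annotated starts of PDK1, and chr17:28576846-28577145 (minus strand), chr12:6914330-6914629 (plus strand) and chr1:167935947-167936246 (minus strand). Capitals mark ACGTG, the core letters of the hypoxia response element, searched on both strands (CACGT on the other one); CACGTG, the E-box, contains it on each strand.
PDK1, upstream start: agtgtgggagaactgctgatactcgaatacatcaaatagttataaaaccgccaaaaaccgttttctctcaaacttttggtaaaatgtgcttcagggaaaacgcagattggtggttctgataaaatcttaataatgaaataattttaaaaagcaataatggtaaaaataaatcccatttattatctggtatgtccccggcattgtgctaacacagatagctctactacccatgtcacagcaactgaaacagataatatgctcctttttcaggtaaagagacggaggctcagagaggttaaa
PDK1, downstream start: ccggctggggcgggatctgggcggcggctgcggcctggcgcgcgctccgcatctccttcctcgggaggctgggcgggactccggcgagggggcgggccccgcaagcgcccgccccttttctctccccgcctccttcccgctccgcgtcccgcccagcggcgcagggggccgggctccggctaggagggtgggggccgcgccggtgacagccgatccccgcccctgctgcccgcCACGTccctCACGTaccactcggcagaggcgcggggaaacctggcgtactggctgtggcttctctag
ALDOC: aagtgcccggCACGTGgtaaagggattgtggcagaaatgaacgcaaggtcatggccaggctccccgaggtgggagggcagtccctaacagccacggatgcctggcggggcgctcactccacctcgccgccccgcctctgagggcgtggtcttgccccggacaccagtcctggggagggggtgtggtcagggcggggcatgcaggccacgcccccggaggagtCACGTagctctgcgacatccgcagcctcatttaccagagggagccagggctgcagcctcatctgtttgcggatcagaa
ENO2: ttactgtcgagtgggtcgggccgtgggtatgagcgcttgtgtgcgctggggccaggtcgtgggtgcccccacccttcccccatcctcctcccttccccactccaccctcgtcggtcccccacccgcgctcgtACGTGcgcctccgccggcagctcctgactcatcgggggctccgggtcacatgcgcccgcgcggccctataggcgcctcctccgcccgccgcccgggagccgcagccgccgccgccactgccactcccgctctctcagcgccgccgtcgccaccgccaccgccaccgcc
MPC2: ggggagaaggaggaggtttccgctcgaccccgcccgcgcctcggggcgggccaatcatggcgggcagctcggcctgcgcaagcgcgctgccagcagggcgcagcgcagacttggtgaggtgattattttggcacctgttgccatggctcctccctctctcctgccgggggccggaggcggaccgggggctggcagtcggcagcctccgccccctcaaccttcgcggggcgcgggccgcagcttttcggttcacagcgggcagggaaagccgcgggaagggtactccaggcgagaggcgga
ALDOC held 3 matches, of which those at bases 11 and 12 of the window overlap in 1 E-box and the other begins at base 223. ENO2 held 1 match, at base 133. PDK1 held none at its upstream start and 2 at its downstream start, at bases 234 and 243, and which start these cells use was not measured. MPC2 has 3 annotated starts, of which 1 is shown, and none held these letters. Windows were found for 36 of the 40 genes, all but SLC2A3, SLC16A1, PFKFB2 and PDP1, with 68 windows in all, some overlapping, since 13 genes have several starts. A match was present in 25 of the 68 windows (36.8%), against 26.0% of 12728 windows of genes with values in every line and 21.4% of all 35116 windows. Counted by gene, 21 of 36 had a match at 1 start or more (58.3%, against 33.4% of 8695 genes with values in every line), where a gene of the set had 1.89 windows on average and those genes 1.46. LDHA held the most matches in 1 window, with 5, but 2 E-boxes in it count as 2 matches each. These are matches of letters and not binding sites.

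Glucose enters by SLC2A transporters, and SLC2A1 (GLUT1), the main one in most tumour lines, was lower with BZW2 shRNA in 2 of 3 lines. It had 459.8, 540.1 and 254.2 CPM in the BZW2 shRNA libraries of HCT116, HT29 and SW480, against 360.6, 1046 and 1006 CPM in the controls. The BZW2 shRNA libraries thus held 127% of control in HCT116, 51.7% in HT29 cells and 25.3% in SW480, and the groups overlapped. In HCT116 its log2 ratio of 0.35 became −0.49 with the GC and length trend removed. The limma fit gave a log2 fold change across lines of −0.83 ± 0.47 (SE, n = 3 lines; adjusted p = 0.422), and without HCT116 it was −1.44 with a limma adjusted p of 0.0334. SLC2A3 (GLUT3), a high-affinity transporter, showed the widest ratios of the set: 1.53 CPM (3 reads) with BZW2 shRNA against 19.5 CPM (123 reads) in the HCT116 control, and 24.4 CPM (152 reads) against 475.4 CPM (2369 reads) in SW480. That is 7.86% of control in HCT116 (95% counting interval 1.598 to 23.5%) and 5.14% in SW480 (4.33 to 6.06%). No value was given for SLC2A3 in HT29, where a gene needed at least 21 reads over both libraries to be listed, so it was not tested across lines. Per kilobase of transcript SLC2A3 made up 6.90% of the 3 SLC2A genes in the SW480 BZW2 shRNA library, against 27.9% in its control. SLC2A8, a transporter found mainly in intracellular membranes, was a minor member with 11.2, 13.0 and 11.7 CPM with BZW2 shRNA against 8.09, 6.55 and 9.43 CPM in the controls. It was higher in each line (in HCT116 only before the GC and length trend was removed), by a log2 fold change of 0.62 ± 0.46 (limma adjusted p = 0.511).

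Lactate leaves and enters cells through SLC16A1 (MCT1) and SLC16A3 (MCT4, an exporter induced in hypoxia). SLC16A1 stayed close to its control, at 91.2% in HCT116, 93.6% in HT29 cells and 100.4% in SW480. SLC16A3 had 694.9, 178.7 and 355.3 CPM with BZW2 shRNA, against 291.6, 222.2 and 255.5 CPM in the controls. It was thus higher in HCT116 and SW480 and lower in HT29, and its HCT116 log2 ratio of 1.25 became −0.09 with the GC and length trend removed.

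Hexokinase traps glucose as glucose-6-phosphate; HK2 is the inducible form that is raised in many tumours, and HK1 is the form most tissues have. HK2 had 171.7, 53.2 and 45.0 CPM in the BZW2 shRNA libraries of HCT116, HT29 and SW480, against 118.2, 225.2 and 385.3 CPM in the controls. It was 23.6% of control in HT29 (95% counting interval 21.3 to 26.1%) and 11.7% in SW480 (10.3 to 13.3%), but 145% in HCT116, so the groups overlapped. The log2 fold change across lines was −1.51 ± 0.61 (unadjusted p = 0.0353, limma adjusted p = 0.351), and −2.56 without HCT116 (limma adjusted p = 0.00185). HK1 had 58.8, 80.9 and 55.1 CPM with BZW2 shRNA against 49.97, 77.3 and 87.9 CPM in the controls, a log2 fold change of −0.09 ± 0.38. Which of the 2 genes was the larger part of their sum differed between treatments in HT29 and SW480. Per kilobase, HK2 was 31.3% of the HK1 and HK2 sum in the HT29 BZW2 shRNA library (28.8 to 33.8%) against 66.9% in its control (65.0 to 68.8%), and 36.1% (32.5 to 39.9%) against 75.2% (73.2 to 77.2%) in SW480. In HCT116 HK2 was the larger part in both, with 66.9% against 62.1%. The direction of such a share does not depend on the transcript length used. HKDC1, outside the set, is left out of these shares. It had 82.3 CPM (738 reads) with BZW2 shRNA against 192.5 CPM (1793 reads) in the HT29 control. Its longest transcript has 3689 bases, against 3998 for HK1 and 5772 for HK2. Per kilobase it stood above HK1 and HK2 in both HT29 libraries, so the pair was not the whole step there. In HCT116 and SW480 it had 2.04 and 2.89 CPM with BZW2 shRNA against 9.99 and 3.81 CPM.

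GPI, which turns glucose-6-phosphate into fructose-6-phosphate, split the lines. It had 519.6, 151.5 and 109.1 CPM with BZW2 shRNA, against 148.8, 119.4 and 360.4 CPM in the controls, which is 3.49-fold control in HCT116 and 30.3% of control in SW480. With ALDOA it was 1 of 2 genes at least 2-fold higher in one line and at least 2-fold lower in another (5.13%, against 2.07% of all genes). The 3 phosphofructokinase genes, whose product commits sugar to glycolysis, were higher in HCT116 as well. PFKL stood at log2 ratios of 1.43 in HCT116, 0.22 in HT29 cells and −0.43 in SW480, PFKM at 0.97, 0.05 and −0.07, and PFKP at 2.36, −0.74 and −0.61. PFKP, the platelet form, was the largest of them in every library, with 984.6, 203.3 and 296.7 CPM with BZW2 shRNA against 192.1, 339.8 and 454.0 CPM in the controls. Per kilobase it was 74.5% of the 3 genes against 55.7% in HCT116, 60.1% against 73.5% in HT29 cells and 61.9% against 68.4% in SW480. With the GC and length trend removed, the HCT116 log2 ratios became 0.13 for PFKL, 0.46 for PFKM, 1.296 for PFKP and 1.19 for GPI.

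Aldolase cuts the 6-carbon sugar, mostly through ALDOA, with ALDOC as a brain-enriched form that other cells can induce. ALDOC had 24.0, 13.3 and 33.8 CPM in the BZW2 shRNA libraries, against 48.9, 56.6 and 154.1 CPM in the controls. All 3 BZW2 shRNA libraries lay below all 3 controls, at 49.2% of control in HCT116, 23.5% in HT29 cells and 21.9% in SW480. The log2 fold change was −1.73 ± 0.42 (unadjusted p = 0.00233, limma adjusted p = 0.263), with a limma adjusted p of 0.00367 without HCT116. With the GC and length trend removed the 3 log2 ratios were −1.97, −2.24 and −2.23. ALDOA had 1208, 419.5 and 420.9 CPM with BZW2 shRNA against 395.3, 674.5 and 1042 CPM in the controls, 3.06-fold control in HCT116 and 62.2% and 40.4% of control in HT29 and SW480. ALDOC took a smaller share of the step in each line, with 2.48% of the ALDOA and ALDOC sum per kilobase against 13.7% in HCT116, 3.89% against 9.69% in HT29 cells and 9.30% against 15.9% in SW480, and the counting intervals of each pair did not overlap.

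The PFKFB enzymes make and remove fructose-2,6-bisphosphate, the strongest activator of phosphofructokinase. PFKFB4 had 33.7, 8.47 and 22.7 CPM with BZW2 shRNA, against 25.5, 30.1 and 83.7 CPM in the controls. It was 28.2% of control in HT29 cells and 27.1% in SW480, and 132% in HCT116 with a counting interval (97.6 to 177%) that includes no difference and a log2 ratio that went to −0.61 from 0.39 with the GC and length trend removed. Its log2 fold change of −1.06 ± 0.53 (limma adjusted p = 0.388) became −1.82 without HCT116 (limma adjusted p = 0.00797). PFKFB3, the form with the highest kinase activity, had 105.3, 30.0 and 39.5 CPM with BZW2 shRNA against 29.7, 56.5 and 44.2 CPM in the controls. PFKFB2 had 30.7, 44.3 and 47.1 CPM against 39.7, 97.2 and 49.97 CPM. All 3 PFKFB genes were thus below control in HT29, 2 of them at least 2-fold, while in SW480 PFKFB4 was at least 2-fold lower and PFKFB2 and PFKFB3 were at 94.2% and 89.6% of control. With the GC and length trend removed, the HT29 log2 ratio was −0.92 for PFKFB2, then under 2-fold, and −1.01 for PFKFB3, then over it. The HCT116 log2 ratio of PFKFB3 went from 1.81 to 0.94.

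**Figure D3:**
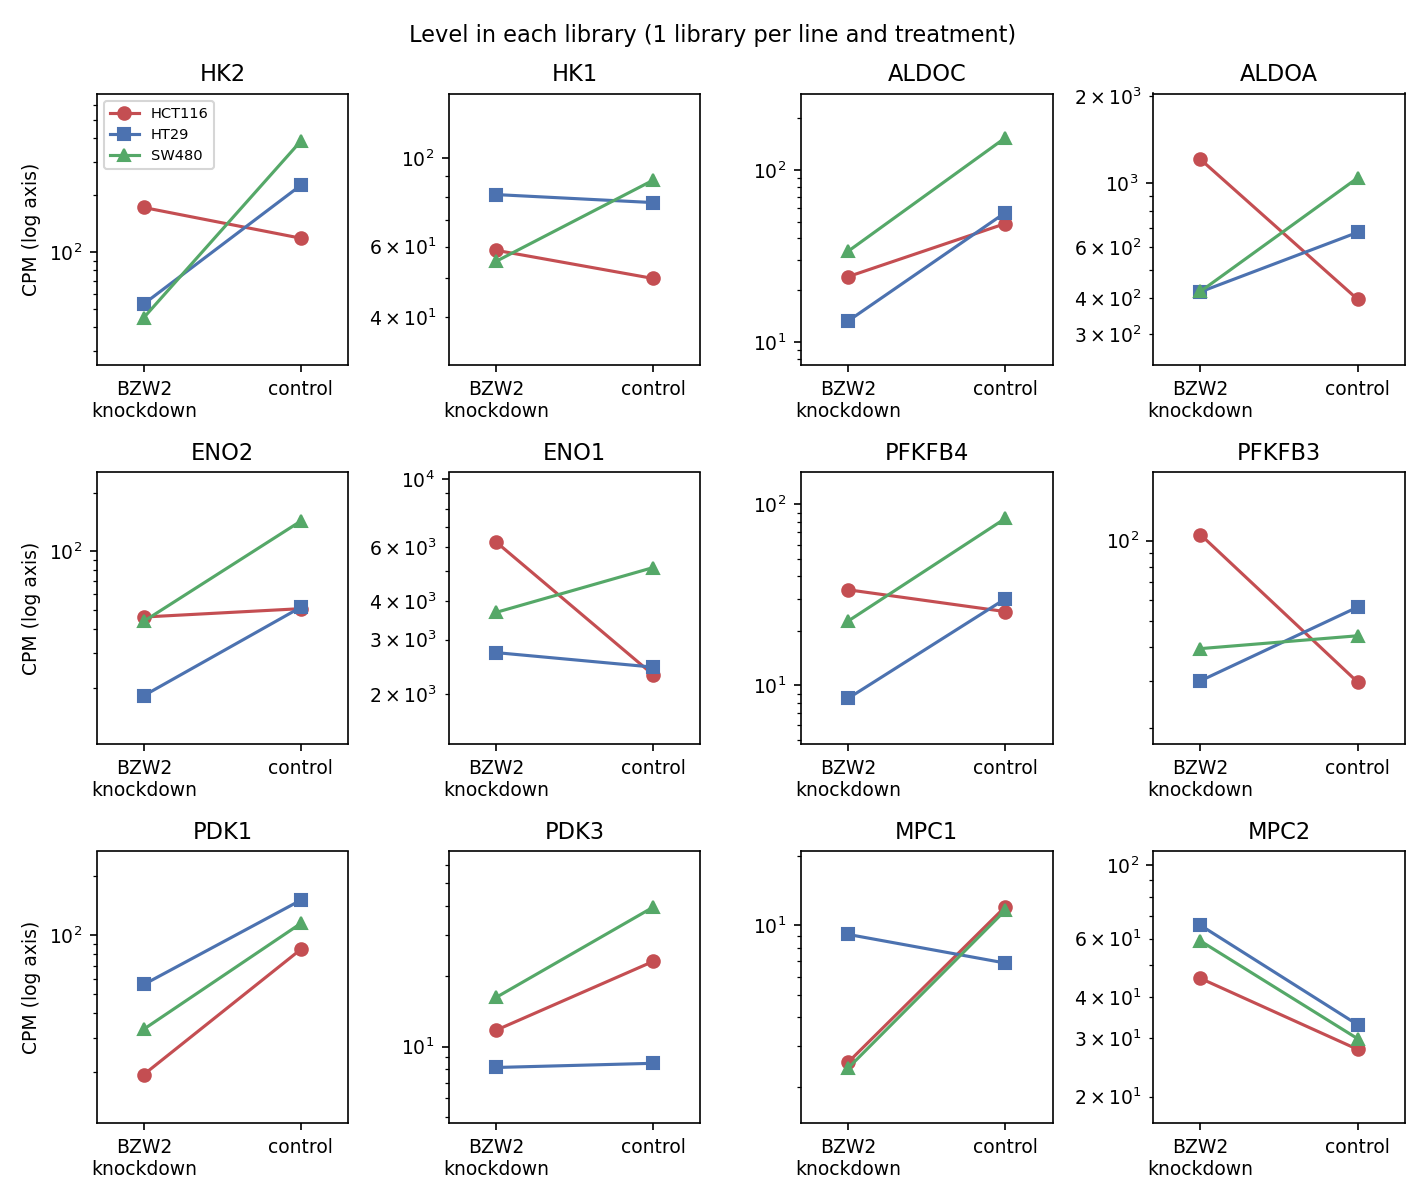
CPM (log axis) of 12 genes in each library, BZW2 shRNA on the left and control on the right of each panel, with lines joining the libraries of one cell line. PDK1, ALDOC and ENO2 slope upward to the control in every line and MPC2 downward, while HK2, PFKFB4, ALDOA, ENO1 and PFKFB3 slope one way in HCT116 (red) and another in SW480 (green).

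The later steps of glycolysis harvest energy from the triose sugars through abundant enzymes. GAPDH and ENO1 had the first and second highest levels per kilobase among the 40 genes in each control library. GAPDH had 4528, 2486 and 2610 CPM with BZW2 shRNA, against 1980, 2381 and 4005 CPM in the controls. It is widely used as a constant gene for scaling, and here it stood at 2.29-fold control in HCT116, 1.04-fold in HT29 and 65.2% of control in SW480. Its HCT116 log2 ratio of 1.19 became 0.12 once the GC and length trend was removed. TPI1, triose phosphate isomerase, stood at log2 ratios of 1.86 in HCT116, 0.17 in HT29 cells and 0.16 in SW480, and PGAM1, phosphoglycerate mutase, at 2.28, 0.28 and 0.20. PKM, pyruvate kinase, stood at 2.11 in HCT116, −0.004 in HT29 cells and 0.38 in SW480. PGK1, the kinase that makes the first ATP, stood at 1.10, −0.61 and −0.69, with 1338, 1252 and 859.5 CPM with BZW2 shRNA against 622.6, 1917 and 1387 CPM in the controls. Near-identical pseudogene copies exist for several of these genes, and the sources used here do not say how the authors counted shared reads, so the split between copies is uncertain.

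Enolase makes phosphoenolpyruvate, mostly through ENO1; ENO2 is the neuronal form, which other cells can induce. ENO2 had 46.0, 18.2 and 43.7 CPM with BZW2 shRNA, against 50.8, 51.6 and 142.9 CPM in the controls. Every BZW2 shRNA library was below every control, narrowly in HCT116 (90.6% of control, counting interval 70.9 to 115%) and more in HT29 (35.2%) and SW480 (30.6%). Its HCT116 log2 ratio of −0.14 became −1.025 with the GC and length trend removed. The log2 fold change was −1.08 ± 0.44 (unadjusted p = 0.0342, limma adjusted p = 0.349), with a limma adjusted p of 0.00982 without HCT116. ENO1 had 6238, 2723 and 3679 CPM with BZW2 shRNA against 2307, 2443 and 5148 CPM in the controls. As a share of the 2 enolase genes per kilobase, ENO2 was 0.660% against 1.95% in HCT116, 0.598% against 1.87% in HT29 cells and 1.06% against 2.44% in SW480.

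Lactate dehydrogenase is a tetramer of A and B subunits; the A form, hypoxia-inducible, favours lactate and the B form favours pyruvate. LDHA had 877.3, 673.3 and 683.0 CPM with BZW2 shRNA, against 471.8, 1179 and 1178 CPM in the controls. LDHB had 923.3, 1582 and 1612 CPM with BZW2 shRNA, against 856.0, 1072 and 1190 CPM. In HT29 and SW480 the 2 genes thus went opposite ways, LDHA to 57.1% and 58.0% of control and LDHB to 148% and 135%. LDHA's share of the pair per kilobase was 21.3% with BZW2 shRNA against 41.2% in the HT29 control and 21.3% against 38.7% in SW480, but 37.7% against 26.0% in HCT116. Neither gene passed across lines: the log2 fold change was −0.20 ± 0.45 for LDHA (limma adjusted p = 0.831) and 0.40 ± 0.38 for LDHB (limma adjusted p = 0.591).

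**Figure D4:**
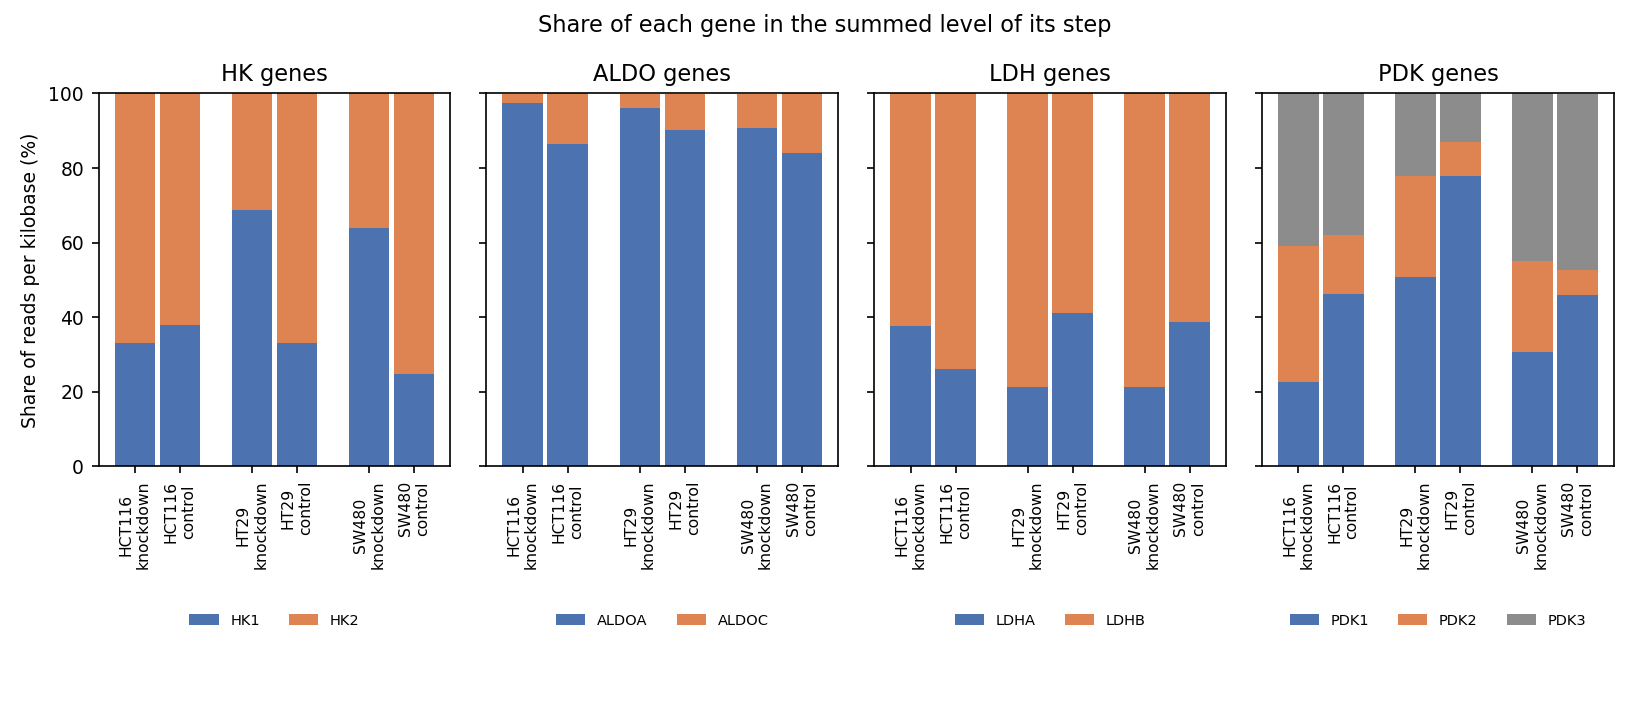
Share of each gene in the summed reads per kilobase of the set's genes of its step, in percent, for each library (BZW2 shRNA left of its control in each line). Genes outside the set, such as HKDC1, are not counted. HK2 and LDHA take a smaller share with BZW2 shRNA in HT29 and SW480 and a larger one in HCT116, while ALDOC and PDK1 take a smaller share in all 3 lines.

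Pyruvate dehydrogenase kinases block the use of pyruvate in mitochondria, and PDK1, the hypoxia-induced one, had the smallest p of the set. It had 19.4, 56.1 and 33.1 CPM in the BZW2 shRNA libraries, against 84.9, 151.4 and 115.2 CPM in the controls. No BZW2 shRNA library reached any control, and the gene stood at 22.9% of control in HCT116, 37.0% in HT29 cells and 28.7% in SW480. The log2 fold change was −1.74 ± 0.37 (unadjusted p = 0.00107, limma adjusted p = 0.250), with a limma adjusted p of 0.00929 without HCT116. PDK1 has the lowest GC content of the set, 39.8%, and a longest transcript of 14193 bases. With the GC and length trend removed the log2 ratio was −0.39 in HCT116, −0.94 in HT29 cells and −1.56 in SW480, all still below 0. PDK3 had 11.8, 8.14 and 16.2 CPM with BZW2 shRNA against 23.2, 8.48 and 39.5 CPM in the controls, lower in HCT116 and SW480 and level in HT29. PDK2 had 7.66, 7.25 and 6.43 CPM against 6.98, 4.19 and 4.01 CPM, with log2 ratios of 0.13, 0.76 and 0.64 on 20 to 44 control reads. Among the 3 kinase genes PDK1 held 22.5% of reads per kilobase with BZW2 shRNA against 46.3% in HCT116, 50.8% against 78.0% in HT29 cells and 30.5% against 46.0% in SW480.

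PDP1, a phosphatase that reactivates the complex, was at 60.6%, 75.3% and 68.4% of control in HCT116, HT29 and SW480, with a log2 fold change of −0.52 ± 0.36 (limma adjusted p = 0.477). In HCT116 its log2 ratio of −0.72 turned to 0.27 with the GC and length trend removed. Its level differed far more between lines than between treatments: 1038, 39.1 and 2087 CPM with BZW2 shRNA, against 1712, 52.0 and 3051 CPM in the controls. Per kilobase PDP1 ranked 4 of 40 in the HCT116 and SW480 controls and 30 of 39 in the HT29 control. Genes for subunits of the complex itself were mixed. The E1 alpha gene PDHA1 stood at log2 ratios of 0.47 in HCT116, 0.36 in HT29 cells and 0.75 in SW480, the E1 beta gene PDHB at 0.74, 0.34 and 0.29, and the E2 gene DLAT at 1.64, −0.06 and 0.46. None of these passed across lines, with limma adjusted p of 0.450, 0.512 and 0.433. Among the other subunit genes, PDHX was at 69.9%, 88.5% and 138% of control in HCT116, HT29 and SW480, and the E3 gene DLD at 46.3%, 93.6% and 136%. With the GC and length trend removed, the HCT116 log2 ratio went from −0.51 to −0.07 for PDHX and from −1.10 to 0.045 for DLD.

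The mitochondrial pyruvate carrier is a dimer of MPC1 and MPC2, and its 2 genes did not go together. MPC2 had 45.5, 65.8 and 59.0 CPM with BZW2 shRNA, against 27.8, 33.0 and 29.9 CPM in the controls. The groups did not overlap, and the BZW2 shRNA libraries held 164%, 200% and 197% of control in HCT116, HT29 and SW480. The log2 fold change was 0.93 ± 0.38 (unadjusted p = 0.0361, limma adjusted p = 0.351; 0.0593 without HCT116). MPC1 had 2.56, 9.14 and 2.41 CPM with BZW2 shRNA, against 12.1, 6.87 and 11.6 CPM in the controls. These rest on few reads, 5 against 76 in HCT116, 82 against 64 in HT29 cells and 15 against 58 in SW480. MPC1 was therefore 21.2% of control in HCT116 (6.69 to 51.7%) and 20.7% in SW480 (10.9 to 37.0%), while the HT29 interval (94.8 to 188%) includes no difference. Its log2 fold change was −1.27 ± 0.62 (limma adjusted p = 0.386).

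The pentose phosphate branch makes NADPH and ribose from glucose-6-phosphate. PGD, its second dehydrogenase, was at 271%, 130% and 125% of control in HCT116, HT29 and SW480, and TALDO1, transaldolase, at 144%, 159% and 123%. TKT, transketolase, was at 204%, 111% and 82.9%. Both PGD and TALDO1 were above control in every line without passing the test (TALDO1 in HCT116 only before the GC and length trend was removed), with log2 fold changes of 0.75 ± 0.39 (limma adjusted p = 0.395) and 0.53 ± 0.35 (limma adjusted p = 0.462). Among the glycogen genes GYS1, glycogen synthase, had the highest HCT116 ratio of the set before the GC and length trend was removed, with 93.0 CPM (182 reads) against 15.2 CPM (96 reads) and a log2 ratio of 2.57. With the trend removed it was 1.44, below DLAT at 2.32, PGK1 at 1.83 and PGAM1 at 1.64. GYS1 stood at −0.02 in HT29 cells and −0.53 in SW480. GBE1, the branching enzyme, stood at 0.26, −0.94 and −0.40, and PGM1, which links glucose-1-phosphate and glucose-6-phosphate, at 0.64, −0.43 and 0.32.

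**Figure D5:**
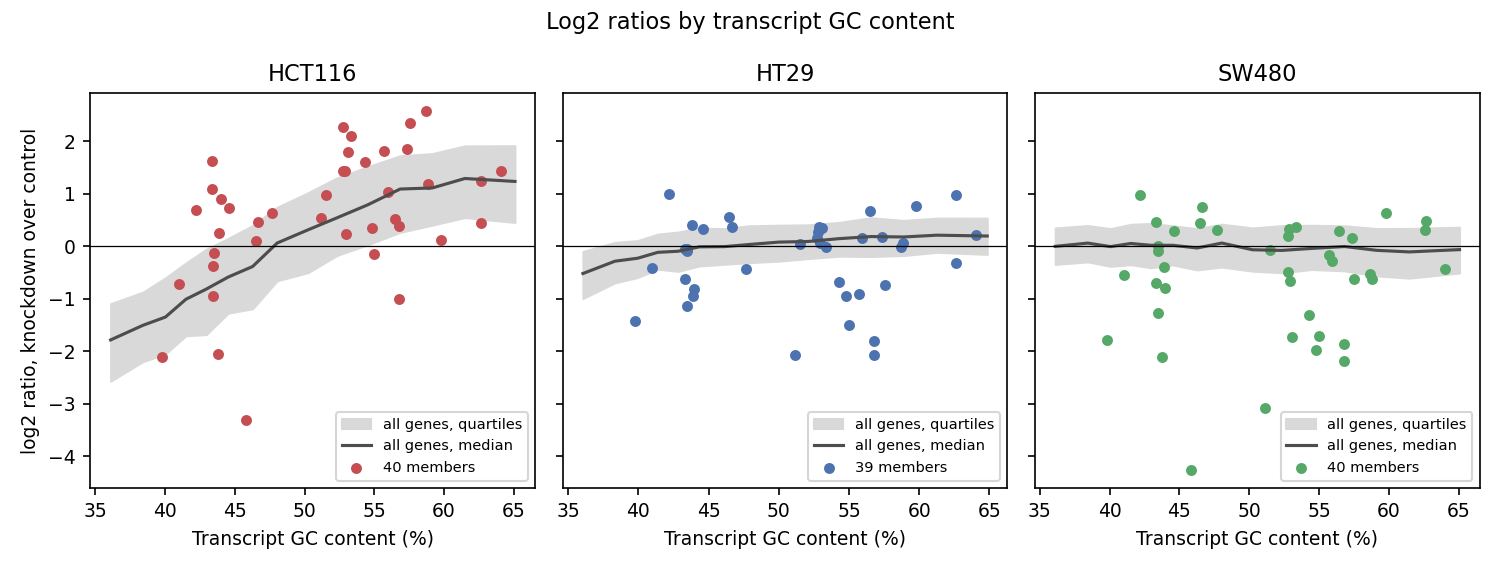
Log2 ratio of BZW2 shRNA over control against transcript GC content (percent) for the 40 genes (points; 39 in HT29) in each line, over the median (line) and quartiles (grey) of all listed genes in bins of GC content. In HCT116 the grey band climbs with GC content and most points lie on or above it; in SW480 it is flat and many points lie below it.

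Other genes of the same pathways were taken as a list of 57, of which 39 had values in all lines. At an unadjusted p under 0.05, 4 were lower (10.3%, against 7.04% of all genes; HKDC1, PCK2, PGM3 and H6PD) and 2 higher (5.13%, against 6.59%; RPIA and ARRDC4), shares near the background, and the median log2 fold change was 0.12, against 0.02 for all genes. PCK2, mitochondrial phosphoenolpyruvate carboxykinase and a known ATF4 target, had 13.3, 64.5 and 14.1 CPM with BZW2 shRNA, against 75.4, 135.5 and 76.1 CPM in the controls. Its log2 fold change was −1.95 ± 0.43 (limma adjusted p = 0.250; 0.0146 without HCT116). HKDC1, a hexokinase relative, stood at −1.22 ± 0.50 and PGM3, of hexosamine synthesis, at −0.96 ± 0.40. RPIA, ribose-5-phosphate isomerase, stood at 1.20 ± 0.38 and ARRDC4, which restrains glucose uptake and is induced by glucose, at 1.82 ± 0.49 (limma adjusted p = 0.268; 0.0431 without HCT116). ARRDC4 rests on 19 to 34 reads in the controls.

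Regulators and hypoxia-induced genes were given as a list of 16, of which 15 had values in all lines. At an unadjusted p under 0.05, 7 were lower (46.7%, against 7.04% of all genes) and 0 higher, against 6.59%, 10 of 15 were lower in all 3 lines (66.7%, against 21.1%), and the median log2 fold change was −1.03, against 0.02 for all genes. The 7 were NDRG1 at −3.31 ± 0.45, P4HA1 at −2.37 ± 0.39, BNIP3L at −2.27 ± 0.49, DDIT4 at −1.93 ± 0.40, ADM at −1.69 ± 0.55, ANKRD37 at −1.64 ± 0.62 and VEGFA at −1.38 ± 0.41. None passed over all genes, where the smallest limma adjusted p of the series was 0.155. The regulators on the list did not pass an unadjusted limma p of 0.05. HIF1A stood at −0.30 ± 0.43, ARNT at −0.065 ± 0.39, VHL at −0.07 ± 0.37 and MYC at 0.07 ± 0.45. For MYC and HIF1A these averages span lines that went different ways. MYC was at 234%, 75.2% and 60.8% of control in HCT116, HT29 and SW480, and HIF1A at 41.5%, 76.8% and 156%. With the GC and length trend removed, the HCT116 log2 ratio went from 1.22 to 0.42 for MYC and from −1.27 to 0.29 for HIF1A. EPAS1 stood at −0.86 ± 0.41, EGLN1 at −0.54 ± 0.36 and EGLN3 at −1.03 ± 0.46. NDRG1, whose product is a hypoxia-induced stress protein, and P4HA1, a prolyl hydroxylase subunit, were at least 2-fold lower in each line, as were BNIP3L and DDIT4. The list was assembled with earlier results of these data known, so its direction is no independent support for that of PDK1, ALDOC, ENO2 or HK2.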

How the data were processed

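RNA sequencing was done on 6 libraries, 3 with BZW2 shRNA and 3 controls, grouped by the treatment label; the cell line gave the replicate. Per the submitters' processing notes, bcl2fastq 2.17, STAR 2.5.2b and DESeq were used with the GRCh38 build; the sources used here name no gene counter, annotation or strandedness, so reads of overlapping, antisense and duplicated genes cannot be told apart. The deposited values are a normalised signal, gene read counts that the authors divided by size factors set within each line. Of 13040 identifiers 19 were repeated in mixed rows and left out; no gene of the lists was among them. Whole reads came from dividing a column by its smallest step (100% of values were whole, tolerance 0.1); the smallest value of the SW480 control was taken as 2 reads. Symbols matched 13003 identifiers and GENCODE 29 matched 13018; length and GC content are those of the longest transcript. Promoters are RefSeq sequences of GRCh38.p14, 1 window for each annotated start.

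The test across lines was limma 3.58.1 (R 4.3.3) on log2(signal + 1), with line as a block and an intensity trend, two-sided, Benjamini-Hochberg adjusted over 10875 genes, with a threshold of 0.05. The design had foreseen counts or normalised values, and the values needed this test. It left 2 residual against 7.26 prior degrees of freedom. Genes needed a value of 1 in 3 libraries, which removed 0. The labels name no repeat cultures, so a p measures the spread of the treatment difference among these lines. The shared line pairs the libraries: deviations from the group means correlated within a line (0.276 for HCT116, 0.754 for HT29, 0.451 for SW480). The highest correlation of a BZW2 shRNA library with another line's control was 0.23 for HCT116, −0.664 for HT29 and 0.379 for SW480. The margin was thus small in HCT116 and SW480. Within a line, TMM-scaled CPM (edgeR 4.0.16, prior count 2) gave log2 ratios, counted from 2-fold with at least 5 CPM in the higher library. Percentages of control are ratios of CPM without the prior count. Intervals are exact Clopper-Pearson at 95% and cover counting error only. Alternatives included DESeq2 1.42.0, edgeR and limma-voom on the recovered reads, other pseudocounts and filters, library-size scaling, a loess removal of GC content and length, and leaving out each line. The limma fit was also run on simulated data, with changes set alike in every line and no GC trend. The real lines differed in both, so that run does not show how the fit behaves on them.

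The genes and lists were chosen with earlier results of these data known. Values in every library were given for genes past an unadjusted p of 0.05, genes at least 2-fold in 1 direction in 2 or more lines or in opposite directions in 2 lines, and their isoenzymes. Genes of the other pathway and regulator lists were named where they passed an unadjusted p of 0.05 with 1 sign in all lines. H6PD, PDHX, DLD and the regulators that did not pass were named outside this rule, H6PD after its values were seen. Promoters were printed for genes of smallest p with 1 sign in all lines, fewer than the rule allowed.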

Additional observations from a re-analysis of the deposited data

Results flagged for a closer look

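GPI, glucose-6-phosphate isomerase, and ALDOA, the main aldolase, were at least 2-fold higher with BZW2 shRNA in one line and at least 2-fold lower in another, which drew attention to them. GPI had a log2 ratio of 1.80 (1.801) in HCT116, 0.34 in HT29 cells and −1.72 in SW480. ALDOA had a log2 ratio of 1.61 (1.611) in HCT116, −0.69 in HT29 cells and −1.31 in SW480. Such opposite 2-fold ratios were found for 2 of 39 genes of the set (5.13%) and for 2.07% of all 10875 genes. With the GC and length trend removed the HCT116 log2 ratios were 1.19 for GPI and 0.78 for ALDOA. With 1 library per line and treatment, the difference between the lines was not tested.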

How the results depend on the processing

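The number of genes with a limma adjusted p under 0.05 was 0 in either direction with all lines, but 27 to 151 lower and 30 to 187 higher when 1 line was left out, most without HCT116, and 134 lower and 110 higher with DESeq2. Members lower at an unadjusted p under 0.05, 4 in the reported fit, numbered 2 to 10 with a line left out (10 without HCT116, 2 without SW480) and 0 without the replicate block; members higher, 1 in the reported fit, numbered 1 to 2 with a line left out (2 without HCT116), 0 without the replicate block, 0 with library-size scaling and 4 with the GC and length trend removed. The block for the line is part of the reported fit, and no member passed the adjusted threshold with or without it. Members lower in all lines, 6 as reported, numbered 7 to 16 with a line left out, and those higher in all lines, 10 as reported, numbered 10 to 17. Such a count cannot fall when a line is left out, since fewer signs must match. Without HCT116, 16 of 39 were lower (41.0%, against 30.7% of all genes) and 10 of 39 higher (25.6%, against 32.5%). At a 1.5-fold threshold HT29 had 13 members lower and 4 higher, against 6 and 0 at 2-fold, and SW480 had 3 higher against 0. With values as deposited 2 members were at least 2-fold higher in HT29 and 1 in SW480, library-size scaling gave 1 in SW480, and removing the GC and length trend gave 1 in HT29 and 10 in place of 16 in HCT116. DESeq2 called ALDOC (−1.79) and PDK1 (−1.78) lower.

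Signs of the log2 fold change across lines turned for 7 of 39 genes with the GC and length trend removed: SLC16A1 to 0.21, GPI to −0.041, PFKL to −0.026, PFKP to −0.051, PFKFB3 to −0.024, GAPDH to −0.21 and PGK1 to 0.26. They also turned for 13 genes when a line was left out, where values ranged, for HK1 from −0.27 to 0.19, GPI from −0.66 to 1.11, PFKL from −0.074 to 0.86, PFKP from −0.65 to 0.91, PFKFB3 from −0.51 to 0.87, ALDOA from −0.97 to 0.50, GAPDH from −0.25 to 0.67, PGK1 from −0.62 to 0.28, ENO1 from −0.14 to 0.83, LDHA from −0.77 to 0.093, TKT from −0.031 to 0.63, PGM1 from −0.024 to 0.52 and, for GYS1 from −0.25 to 1.32. Leaving out HCT116 turned GPI, PFKL, PFKP, PFKFB3, GAPDH, ENO1, TKT, PGM1 and GYS1 to below 0, leaving out HT29 or SW480 turned ALDOA (0.19 and 0.50), PGK1 (0.25 and 0.28) and LDHA (0.093 and 0.081) to above 0, and leaving out SW480 turned HK1 to 0.19. The cause was not tested. Scaling by library size alone lowered the median of all genes in HCT116 to −0.39 and that of the members to 0.36. MPC1, PDK2 and SLC2A3 rest on few reads in some libraries, and 1 library per line and treatment gives no error within a line.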
